A study of Homo sapiens with 4 samples.

Results

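The genes described here form the interleukin-6 (IL-6) receptor, gp130 and STAT3 axis: IL6, IL6R, IL6ST, JAK1, JAK2, STAT3, SOCS3, BCL3, PIM1 and PTPN6. They were taken as the probe sets that the array annotation pairs with those symbols alone, which gave 10 genes of 18417, each with 1 probe set. They were followed in U266, an established multiple myeloma line, and K562, an established line from chronic myeloid leukaemia with the BCR-ABL1 fusion. Both lines had been exposed to atovaquone, an antimalarial hydroxynaphthoquinone, or to its solvent DMSO. U266 cells received 15 µM atovaquone or DMSO over 2 h, and K562 cells received 20 µM atovaquone or DMSO over 5 h. In both lines the medium had been renewed on the previous day, and the additions were made to it without a further change. Each of the 4 groups had 1 array of labelled total RNA, so no value below has a replicate, no test was run, and each ratio describes 1 pair of arrays.

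IL-6 binds its receptor IL-6R, encoded by IL6R, and the pair recruits gp130, encoded by IL6ST, the signalling chain shared by a family of cytokines. The kinases JAK1, JAK2 and TYK2 on gp130 phosphorylate it, and STAT3 docks there, is phosphorylated and enters the nucleus as a dimer that activates genes such as SOCS3, BCL3 and PIM1. SOCS3 then binds gp130 and the kinases and shuts the signal down, and phosphatases such as SHP-1, encoded by PTPN6, also remove it. In myeloma this pathway is known as a growth and survival signal, and U266 is known to make IL-6 of its own, whereas in K562 the BCR-ABL1 kinase drives mainly STAT5. Atovaquone has been described by the laboratory behind this series as an inhibitor of STAT3 that lowers gp130 on the cell surface. That description concerns proteins, and the arrays asked what the RNA of these genes showed.

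The deposited values are processed intensities on a linear scale, and their level in 1 gene cannot be set against that in another, because each probe set binds with its own strength. A floor was placed at the 40th percentile of each array's annotated probe sets, at intensities from 305 to 331. A gene was counted as measured in a comparison when both arrays were at or above it, and the median ratio over such probe sets was subtracted from every log2 ratio. In U266 10731 genes were measured and in K562 10756. Where a gene has several probe sets, their log2 ratios differed with an SD of 0.09 in U266 over 399 genes and 0.11 in K562 over 417 genes, which is a spread within arrays and not between cultures. The vehicle arrays carried the genes of their labelled cell types. All 10 plasma cell markers were above the floor in U266, and 6 of them were above it in K562 too. Of the 10, 9 exceeded their K562 value at least 2-fold in U266 with bounds counted, CD38 being the exception at 1.66-fold lower. All 7 erythroid and megakaryocytic markers with a value were above the floor in K562, and 4 of them were above it in U266 too. With bounds counted, 6 were at least 2-fold higher in K562. Of markers of other cells, 0 of 4 monocyte and macrophage, 1 of 4 T cell and 3 of 5 fibroblast and epithelial genes were above the floor in U266, against 3, 2 and 4 in K562. With bounds counted, 2 monocyte and macrophage and 3 fibroblast and epithelial genes were at least 2-fold higher in K562. Their K562 vehicle intensities included 3113 for LYZ and 3588 for KRT8. With atovaquone 1 marker in all was at least 1.5-fold different, the plasma cell factor gene XBP1 in K562, with an intensity of 1649 on vehicle and 2546 on atovaquone.

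On the vehicle arrays the ligand and both receptor genes stood higher in U266, and the downstream kinase gene PIM1 stood higher in K562. IL6R was 11.6-fold higher in U266, IL6ST 3.69-fold and BCL3 2.20-fold, and PIM1 was 2.81-fold higher in K562. Both vehicle arrays measured 9 members. U266 was at least 2-fold above K562 for 3 of them, against 7.97% of the 9483 genes measured there, and K562 at least 2-fold above U266 for 1, against 6.97%. IL6 lay just under the floor on the K562 vehicle array and was not counted. The other members differed less, with STAT3 1.39-fold higher in U266, and SOCS3 1.72-fold and JAK2 1.41-fold higher in K562. Under a floor at the 60th percentile IL6ST alone of the 3 kept a measured difference, while IL6R became a lower bound of 3.03 on the log2 scale and BCL3 one of 0.48. The 2 vehicle arrays also differ in exposure time, so line and time cannot be told apart. In RNA from a whole culture, fewer cells with a transcript and less of it per cell cannot be told apart either.

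**Figure D1:**
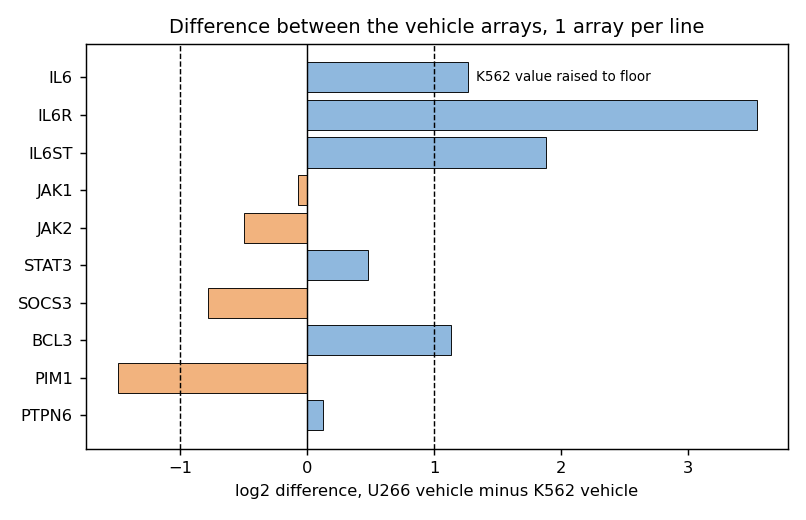
Log2 difference between the vehicle arrays, U266 minus K562, for the 10 genes, with 1 array per line and dashed lines at 2-fold. IL6R has the longest bar at 3.54 and PIM1 the lowest at −1.49, while JAK1 lies at −0.07 and PTPN6 at 0.12.

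With atovaquone, SOCS3 in U266 was the single member past 1.5-fold in either line. It was 2.46-fold higher than on the vehicle array. STAT3 and IL6ST, the genes of the transcription factor and of gp130, were 1.02-fold and 1.21-fold higher in U266. In K562 STAT3 was 1.09-fold lower and IL6ST 1.06-fold higher. In U266 1 of 10 members was at least 1.5-fold higher, against 0.857% of measured genes, and 0 of 10 were at least 1.5-fold lower, against 0.0932%. In K562 0 of 9 measured members were at least 1.5-fold higher, against 1.42% of measured genes, and 0 of 9 at least 1.5-fold lower, against 0.697%. The members' median log2 ratio was 0.12 in U266, where 9 of 10 lay above 0, and −0.06 in K562, where 3 of 9 did. Over all measured genes the median was −0.00012 in U266, with 50% above 0, and −0.0057 in K562, with 48.8% above 0.

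**Figure D2:**
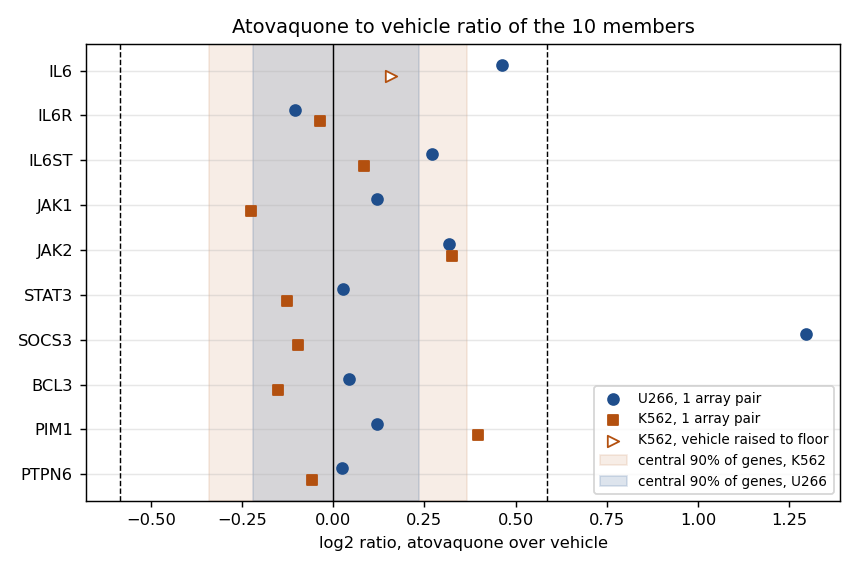
Log2 ratio of atovaquone to vehicle for the 10 genes, U266 as circles and K562 as squares, with dashed lines at 1.5-fold and shading over the central 90% of measured genes in each line. SOCS3 in U266 lies alone at 1.30, and the other points lie between −0.22 and 0.46, with IL6 in K562 drawn as an open triangle because its vehicle value was raised to the floor.

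IL6 encodes the cytokine itself. Its intensity in U266 was 724 with vehicle and 989.65 with atovaquone, and in K562 it was 305 with vehicle and 339.71 with atovaquone. Both U266 values stood clear of the floor, at 2.19 and 3.06 times its level, while the K562 values lay around it, 1 just below and 1 just above. In U266 the log2 ratio was 0.46, or 1.38-fold higher, with 1.30% of measured genes at least as high. In K562 the log2 ratio was 0.16 with the vehicle value raised to the floor and 0.17 with no floor. Between the vehicle arrays the log2 difference of IL6 was 1.27 with the K562 value raised to the floor and 1.21 with no floor, U266 being higher.

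IL6R encodes the chain that binds IL-6 and gives a cell its own response to it. Its intensity in U266 was 5120.3 with vehicle and 4731 with atovaquone, and in K562 it was 448 and 435. The lines did not come near each other, and within each line the atovaquone array was the lower of the pair. The log2 ratios were −0.10 in U266 and −0.04 in K562, and 19.6% of measured genes in U266 and 42.6% in K562 were at least as low. Across the vehicle arrays IL6R had the 7th highest U266 to K562 ratio of 9483 genes.

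IL6ST (probe set 8112139, Entrez gene 3572) encodes gp130, the chain that carries the signal into the cell. Its intensity in U266 was 3029 with vehicle and 3631 with atovaquone, and in K562 it was 835 and 883. In each line the atovaquone array was the higher of the pair, and both U266 values were well above both of K562. In U266 the log2 ratio of 0.27 was about the size at which the upper 5% of genes begins, 0.24, with 3.81% of measured genes at least as high. IL6ST was among the 2683 brightest U266 genes with vehicle, whose log2 ratios had an SD of 0.12. In K562 the ratio of 0.08 was within the SD of 0.11 between probe sets of 1 gene. The annotation lists 4 RefSeq transcripts for the IL6ST probe set and 3 for that of IL6R, so the soluble and membrane forms of both receptors cannot be told apart.

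JAK1 and JAK2 encode tyrosine kinases that sit on the tail of gp130. JAK1 had intensities of 1863 with vehicle and 2009 with atovaquone in U266, and of 1988 and 1696 in K562. The log2 ratios were 0.12 in U266 and −0.22 in K562, where 12.3% of measured genes were at least as low. JAK1 thus lay on opposite sides of 0, by less than 1.5-fold on either side. JAK2 had intensities of 406 with vehicle and 503 with atovaquone in U266, and of 584 and 729 in K562. It was higher with atovaquone in each line, at log2 ratios of 0.32 and 0.33, and 2.75% of measured genes in U266 and 6.47% in K562 were at least as high. On both vehicle arrays JAK2 stood less than 2 times above the floor, a range in which ratios of all genes were wider than among bright genes in U266. The SD of log2 ratios was 0.23 over the 2683 dimmest U266 genes and 0.12 over the 2683 brightest.

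STAT3 (probe set 8015607, Entrez gene 6774) encodes the transcription factor that gp130 activates. Its intensity in U266 was 3806 with vehicle and 3854 with atovaquone, and in K562 it was 2781 and 2537. The U266 pair was nearly level, and both of its arrays lay above both of K562. The log2 ratio was 0.03 in U266, where 40.8% of measured genes were at least as high, and −0.13 in K562, where 25.5% were at least as low. The probe set covers 3 RefSeq transcripts, so STAT3 isoforms are read together, and phosphorylation of the protein is outside what an RNA array measures.

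SOCS3 (probe set 8018864, Entrez gene 9021) encodes the feedback inhibitor that STAT3 itself induces. Its intensity in U266 was 377 with vehicle and 920.3 with atovaquone, and in K562 it was 661 with vehicle and 615 with atovaquone. The U266 vehicle array was the lowest of the 4 and the U266 atovaquone array the highest, so the order of the lines was reversed between the vehicle and the atovaquone arrays. The U266 log2 ratio of 1.30 ranked 23rd from the top of 10731 genes. Of the 2683 U266 genes dimmest with vehicle, SOCS3 among them, 1.45% were at least 1.5-fold higher. In K562 the log2 ratio was −0.10, and 30.6% of measured genes were at least as low. The U266 vehicle value stood 1.14 times above the floor. A floor at the 60th percentile put that value under it, and the U266 log2 ratio became a lower bound of 0.46, which is under 1.5-fold.

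**Figure D3:**
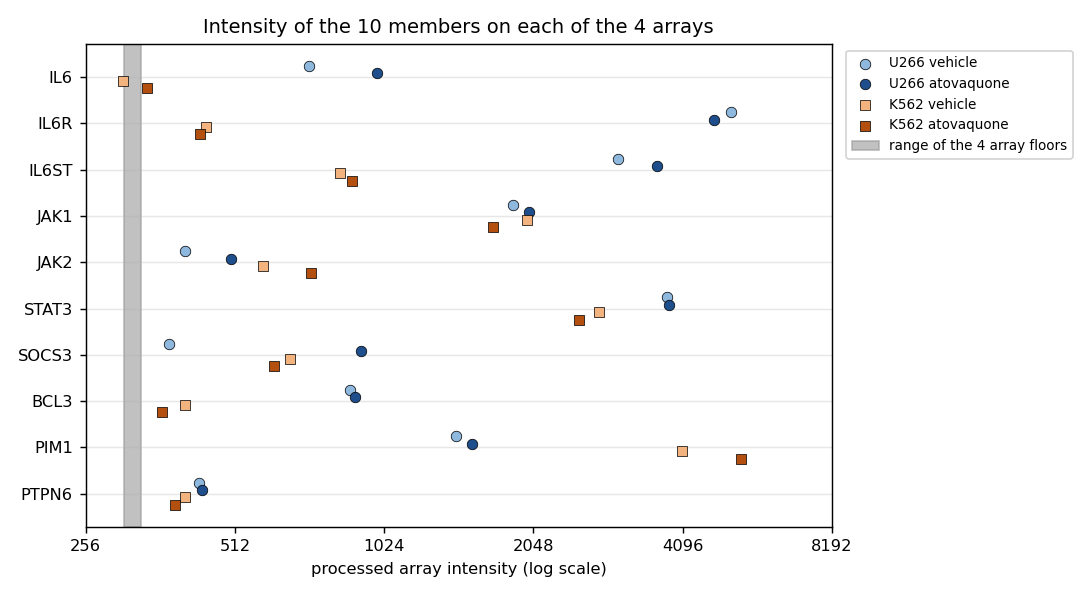
Processed intensity of each of the 10 genes on each of the 4 arrays, on a log axis, with the range of the 4 array floors in grey. Positions compare arrays within a gene and not genes with each other. SOCS3 runs from 377 to 920.3 between the U266 arrays, and the STAT3 pair in U266 lies at 3806 and 3854.

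BCL3 and PIM1 are the other STAT3 targets among the members. BCL3, an IκB-family co-regulator of NF-κB, had intensities of 875 with vehicle and 896.5 with atovaquone in U266, and of 406 and 364 in K562. Its log2 ratios were 0.04 and −0.15. PIM1, a serine/threonine kinase that promotes survival and is also a target of STAT5, had intensities of 1428 with vehicle and 1543 with atovaquone in U266, and of 4087 and 5361 in K562. Its log2 ratio was 0.12 in U266 and 0.40 in K562, where it was 1.32-fold higher and 4.11% of measured genes were at least as high. PIM1 was therefore the highest-ratio member in K562, and SOCS3 the highest in U266. PTPN6, which encodes the phosphatase SHP-1, had intensities of 434 and 439 in U266 and of 406 and 388 in K562. These 4 values span a narrow band just above the floor, with log2 ratios of 0.02 and −0.06.

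Set against the 5th and 95th percentiles of all measured genes, 4 of 10 members in U266 lay above the 95th, at 0.24, and 0 lay below the 5th, at −0.22. They were the ligand gene IL6, the receptor gene IL6ST, the kinase gene JAK2 and the inhibitor gene SOCS3. The percentiles take no account of intensity. JAK2 and SOCS3 were among the 2683 dimmest U266 genes with vehicle, whose log2 ratios had an SD of 0.23. In K562 1 of 9 lay above the 95th percentile, at 0.37, which was PIM1, and 0 lay below the 5th, at −0.34. The K562 ratios of all genes were thus more widely spread than those of U266, and the exposures differed in dose and time, so the ratios of the lines are given side by side without a comparison.

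**Figure D4:**
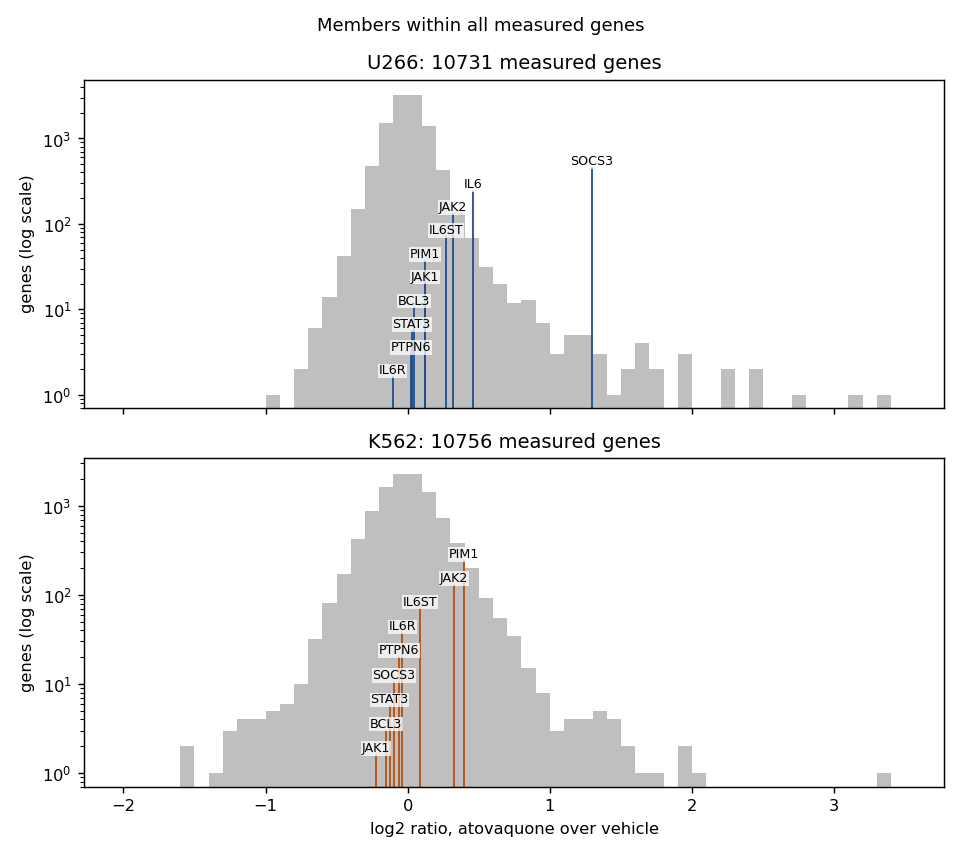
Numbers of measured genes (log scale) by log2 ratio of atovaquone to vehicle in U266 and K562, in steps of 0.1, with vertical lines at the members. In U266 SOCS3 at 1.30 lies in the sparse right tail, and in K562 all 9 measured members lie between −0.22 and 0.40.

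The 3 genes most like STAT3, IL6ST and SOCS3 were sought among 9222 genes measured on all 4 arrays, by Euclidean distance over 3 values, the U266 ratio, the K562 ratio and the difference between vehicle arrays. STAT3 had close neighbours in RTF1, CHST12 and LAMP1, at distances of 0.03, 0.04 and 0.04 on the log2 scale. IL6ST was nearest to ZNF513, RAPGEF2 and SIAH2, at 0.15, 0.18 and 0.19. SOCS3 had sparser surroundings, with HSPH1, an HSP110 chaperone, at 0.22, and the small nucleolar RNA genes SNORD58A and SNORD59B at 0.38 and 0.48. HSPH1 had log2 ratios of 1.32 in U266 and −0.28 in K562. In K562 SNORD58A stood at 0.12 and SNORD59B at 0.22, on the other side of 0 from SOCS3 at −0.10. The neighbours were picked by these same values, so their likeness in them is no further result.

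Promoter sequence is shown for the genes of gp130, of STAT3 and of the member with the largest ratio, because STAT dimers bind palindromic sites near the starts of genes that they control, their own among them. RefSeq (GRCh38.p14) gave 17 promoter windows for the 10 members, and the 250 bases before each start were searched on both strands. The motif TTCNNNGAA occurred in 0 of 17 windows, against 6.57% of 35116 promoters of all genes. A second STAT motif, TTNCNNNAA, chosen after that result and sharing some but not all of its sites, occurred in 6 of 17, or 35.3%, against 30.5% of all promoters. The AP-1 motif TGANTCA was in 0 of 17, against 6.57%. Capitals mark matches to TTNCNNNAA on either strand, a motif that, unlike TTCNNNGAA, is not palindromic. Of the 2 SOCS3 windows only the one with matches is shown, and the other had 0. In IL6ST (chr5:55994964-55995213, minus strand) the match starts 217 bases before the start, in STAT3 (chr17:42388443-42388692, minus strand) 132 bases before it, and at the more upstream of the 2 SOCS3 starts (chr17:78360926-78361175, minus strand) a pair of matches that overlap starts 216 and 215 bases before it.
IL6ST: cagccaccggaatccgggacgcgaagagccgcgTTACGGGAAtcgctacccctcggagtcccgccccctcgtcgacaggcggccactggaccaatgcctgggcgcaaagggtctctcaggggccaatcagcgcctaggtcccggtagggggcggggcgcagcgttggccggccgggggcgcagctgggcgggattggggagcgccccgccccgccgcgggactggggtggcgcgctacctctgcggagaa
STAT3: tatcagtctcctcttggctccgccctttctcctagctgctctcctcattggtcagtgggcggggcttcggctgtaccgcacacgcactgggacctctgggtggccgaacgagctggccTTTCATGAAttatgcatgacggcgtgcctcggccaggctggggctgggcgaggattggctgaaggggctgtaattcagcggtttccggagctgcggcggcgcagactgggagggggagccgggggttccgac
SOCS3: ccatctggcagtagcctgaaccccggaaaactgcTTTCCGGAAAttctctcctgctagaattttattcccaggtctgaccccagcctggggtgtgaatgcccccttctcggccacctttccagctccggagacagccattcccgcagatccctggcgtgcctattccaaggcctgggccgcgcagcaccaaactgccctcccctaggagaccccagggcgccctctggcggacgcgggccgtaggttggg
A match is a run of letters and not a shown binding site, and a window without one says only that these letters are not in it. The STAT sites known for SOCS3 lie close to its main start, which may be neither of the 2 starts used, so the windows searched may not hold them. The share of member windows that held one was near that of all promoters, and the 3 genes shown had U266 log2 ratios of 0.27, 0.03 and 1.30.

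Other genes that STAT3 is known to activate were read next, 32 in all, of which 23 were measured in U266 and 22 in K562. The list was drawn up with earlier results of these data known. In U266 the median log2 ratio was 0.09 against −0.00012 over all genes. Atovaquone was at least 1.5-fold below vehicle for 0 of 23, against 0.0932% of measured genes. It was at least 1.5-fold above vehicle for 4 of 23, against 0.857%. The 4 were KLF6, a zinc finger transcription factor gene, at 1.24, MYC at 0.84, and the repressor genes BCL6 and NFIL3, both at 0.81. FOS, an AP-1 subunit gene, was under the floor with vehicle and at least 4.30-fold higher. KLF6, MYC and FOS are also known as immediate early genes, which many signals besides STAT3 switch on. Which signal acted on them here was not tested. MYC, BCL6 and NFIL3 stood near the floor with vehicle, at 385, 334 and 555. They were among the 2683 dimmest U266 genes, of which 1.45% were at least 1.5-fold higher. Under a floor at the 60th percentile KLF6 alone of the 4 kept a measured ratio, at 1.23. The survival genes MCL1, BCL2L1 and BIRC5 stood at −0.08, −0.12 and −0.02 in U266 and the cyclin gene CCND1 at −0.12. CDC25A, a cell cycle phosphatase gene, had the lowest ratio of the list there at −0.35, with intensities of 954 and 745, and stood at −0.54 in K562.

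In K562 atovaquone was at least 1.5-fold above vehicle for 2 of 22 targets, against 1.42% of measured genes. It was at least 1.5-fold below vehicle for 2 of 22, against 0.697%. The median log2 ratio of the targets was −0.07. VEGFA, the angiogenic growth factor gene, stood at 1.42 and CEBPB, a bZIP transcription factor gene, at 1.18. The lower genes were IER3, an immediate early gene, at −0.74, and ICAM1, an adhesion molecule gene, at −0.62. Both of the higher genes are also known to respond to metabolic stress, VEGFA through hypoxia and ATF4 and CEBPB through ATF4. Whether either gene did so here was not tested. With no floor 4 targets were at least 1.5-fold higher, because BCL6 at 1.21 and TNFAIP3 at 1.82 then had a measured ratio, and a floor at the 60th percentile left 1 at least 1.5-fold lower, because IER3 became an upper bound of −0.45.

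**Figure D5:**
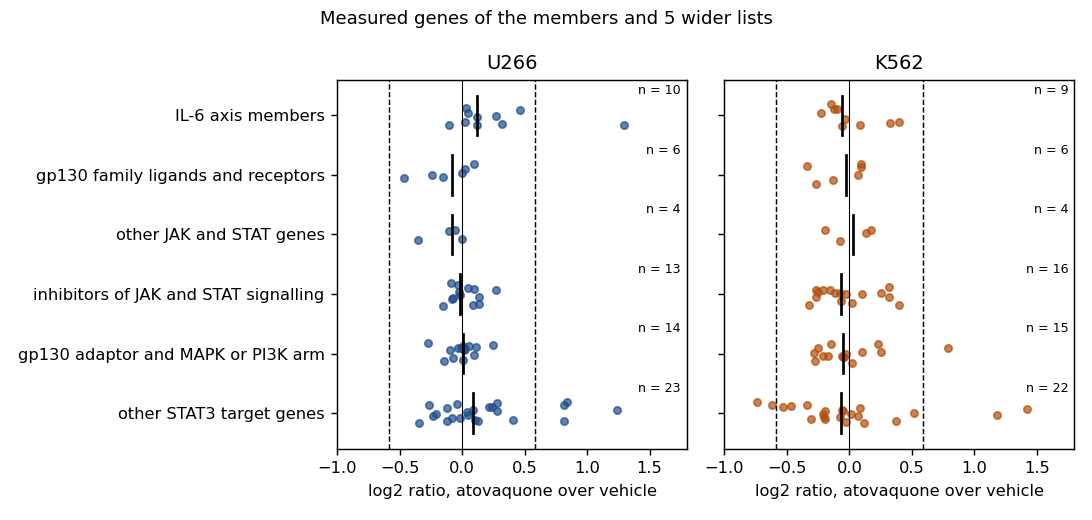
Log2 ratio of atovaquone to vehicle for each measured gene of the 10 members and of 5 wider lists, in U266 and K562, with the median of each list as a black bar, its number of measured genes as n and dashed lines at 1.5-fold. Genes past 1.5-fold lie among the members (SOCS3 in U266), the STAT3 targets and, in K562, the adaptor list (GAB2).

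The rest of the pathway held 1 gene past 1.5-fold. Over all measured genes 0.857% were at least 1.5-fold higher and 0.0932% lower in U266. In K562 these shares were 1.42% and 0.697%. Among ligands and receptors of the gp130 family and the proteases that shed them, 6 of 18 were measured in each line and 0 were at least 1.5-fold different. IL11, another gp130 cytokine gene, had the lowest U266 log2 ratio of these at −0.46, with intensities of 1077 and 776. IL27RA, a receptor chain that pairs with gp130, stood at −0.24 in U266 and −0.34 in K562, and ADAM10, a sheddase gene, at −0.27 in K562. LIFR, OSMR and IL31RA, the genes of other receptor chains, were under the floor on all 4 arrays. The list's median was −0.08 in U266 and −0.03 in K562.

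Among the other JAK and STAT genes 4 of 8 were measured in each line and 0 passed 1.5-fold, with medians of −0.08 and 0.03. STAT4 stood at −0.35 in U266, TYK2, the third gp130 kinase, at −0.11 in U266 and 0.17 in K562, and STAT5A at −0.20 in K562. Of inhibitors of the pathway 0 of 13 in U266 and 0 of 16 in K562 passed 1.5-fold, with medians of −0.01 and −0.07. PTPN2, a phosphatase of nuclear STATs, stood at 0.27 in U266 and 0.39 in K562, PIAS4 at −0.15 in U266 and SOCS4 at −0.33 in K562. SOCS1, the closest relative of SOCS3 in its action on JAKs, stood at 0.09 and 0.31. Of the adaptor, MAP kinase and PI3 kinase genes downstream of gp130, 0 of 14 in U266 passed 1.5-fold. In K562 1 of 15 was at least 1.5-fold higher, against 1.42% of measured genes there. That gene was GAB2, a docking adaptor also known for its role under BCR-ABL1, with intensities of 692 with vehicle and 1192 with atovaquone and a log2 ratio of 0.79. In U266 PIK3R1 stood at −0.27 and FYN at 0.24.

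Between the vehicle arrays most measured genes of the wider lists lay within 2-fold. U266 was at least 2-fold above K562 for 1 of 5 ligands and receptors, 0 of 2 JAK and STAT genes, 1 of 13 inhibitors, 1 of 14 adaptor genes and 5 of 20 STAT3 targets, against 7.97% of all genes. K562 was at least 2-fold above U266 for 0, 1, 1, 0 and 3 of them, against 6.97%, and genes given as bounds were not counted. The shares of the inhibitors, 7.69% each way, and of the adaptor genes, 7.14% and 0%, were near or below those of all genes. In U266 JAK3 was at least 5.47-fold and STAT4 at least 6.85-fold higher, while in K562 STAT5A was at least 9.66-fold and STAT5B 5.41-fold higher. Among inhibitors PTPRC, which encodes the phosphatase CD45, was 4.21-fold higher in U266, whereas K562 was higher for the STAT5-induced genes SOCS2, by at least 5.09-fold, and CISH, by at least 2.91-fold, and for the ubiquitin ligase gene CBL, by 2.13-fold. The docking adaptor gene GAB1 was 2.93-fold higher in U266 and GAB2 at least 2.06-fold higher in K562. IL11 was 2.97-fold higher in U266. Of STAT3 targets, CCND1, the cyclin D1 gene, was 8.10-fold, ICAM1 2.81-fold and PIM2 2.37-fold higher in U266, and TNFAIP3 at least 5.32-fold. MYC was 17.4-fold, the protease inhibitor gene TIMP1 5.15-fold and PIM3 2.44-fold higher in K562, and the glycoprotein gene LRG1 at least 2.33-fold.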

How the data were processed

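Gene expression was measured on 4 Affymetrix Human Gene ST arrays. The deposited values are the authors' processed intensity per probe set on a linear scale; how they were background-corrected, normalised and summarised is not stated. The members and lists were chosen with earlier results of these data known. The annotation lists 21214 of 33252 probe sets, 12038 being unlisted. It gives 1754 several symbols and 19460 a single one, and Entrez identifiers tied 19429 of the latter to current genes. A gene was its brightest probe set by mean log2 intensity. Values under each array's 40th percentile were raised to it, and log2 ratios were centred by −0.0096 in U266, −0.0048 in K562 and −0.02 between vehicle arrays. A gene under the floor on 1 array has a bound ("at least"). Genes past 1.5-fold (2-fold between lines) were counted. Of the wider lists, genes past the fold were named, at most 6 per list and line (3 per direction between lines), or else the 2 largest ratios; bounds, genes under the floor, MCL1, BCL2L1, BIRC5, CCND1, CDC25A and SOCS1 were added after their values were seen. The list genes without a probe set of 1 symbol, 12 in all, have no value here. Calculations used Python 3.11.15, numpy 2.4.6 and pandas 2.3.3, and were tested on simulated data. Array number limits the precision.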

Additional observations from a re-analysis of the deposited data

Results flagged for a closer look

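SOCS3 had a log2 ratio of atovaquone to vehicle of 1.30 in U266 and −0.10 in K562, opposite signs in the 2 lines, with the U266 value past 1.5-fold. ICAM1 had opposite signs too, at 0.21 in U266 and −0.62 in K562, with the K562 value past 1.5-fold. With 1 array per group the difference between lines was not tested, and dose and exposure time differed between them.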

How the results depend on the processing

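Of 479 values under 10 alternative settings, 446 moved by less than the spread between probe sets of 1 gene or, for counts, stayed within 1.5 times, 33 moved further, and none changed sign past the fold. No centring, quantile normalisation, the mean over probe sets, probe sets with several symbols and the floor at the 20th percentile left every count and median of the members and STAT3 targets within that range. Some of these settings could hardly move a value. Each member has 1 probe set, so the mean over probe sets left its ratio as it was. No centring shifted all ratios of a comparison alike, by less than the spread between probe sets. The 446 thus partly counts values that could not move. With the floor at the 60th percentile 0 members in U266 were at least 1.5-fold higher, SOCS3 having a lower bound of 0.46. There 1 STAT3 target was higher in U266 and 1 lower in K562, and 1 member was at least 2-fold higher on the U266 vehicle array. These counts leave out bounds. Under that floor IL6R had a lower bound of 3.03 between the vehicle arrays and FOS one of 1.07 in U266, both past the fold. Without a floor the K562 count of higher STAT3 targets was 4. At the smaller threshold of 0.32 on the log2 scale 2 members were higher in U266 and 2 in K562, 1 STAT3 target was lower in U266, and 4 were higher and 5 lower in K562. At 2-fold 1 STAT3 target was higher in U266 and 0 were lower in K562. At 1.5-fold the vehicle arrays gave 2 members higher in K562. With the floor at the 60th percentile 15 values, such as PTPN6 in both lines, could not be given. That floor left 7 members measured in U266, against 10 in the main setting, and 4 in K562, against 9. No paired analysis was possible because each group has 1 array and the labels carry no replicate numbers; no array could be left out for the same reason. Signal near the floor limits SOCS3 in U266, JAK2 and PTPN6 in both lines, and IL6, IL6R and BCL3 in K562.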

Other observations

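A few genes of the pathway had ratios of like size and sign in both lines, at different doses and times. JAK2 stood at 0.32 in U266 and 0.33 in K562, PTPN2 at 0.27 and 0.39, FYN, a Src-family kinase gene, at 0.24 and 0.23, and PTPRC at 0.14 and 0.25. Others were lower in both, such as FOSL1 at −0.26 and −0.31, IL27RA at −0.24 and −0.34, and CDC25A at −0.35 and −0.54. With vehicle JAK2, PTPN2 and FYN were among the 2683 dimmest U266 genes, whose log2 ratios had an SD of 0.23. How often all measured genes had like signs in both lines was not counted. These genes were picked after their values were seen, and each value rests on 1 pair of arrays.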
